A study of Sus scrofa with 10 samples.

Results

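The genes of the proteasome were examined in nuclear RNA of cardiomyocytes sorted from minipig (Sus scrofa) hearts. All genes whose symbol begins with PSM, a letter from A to G and a digit were taken, which gave 46 of the 35670 gene identifiers in the tables. They comprised 8 genes of the alpha ring, 9 of the beta ring with its inducible forms, 6 ATPases, 11 other subunits of the 19S particle, 5 assembly chaperones, and 5 activators and inhibitors. The other two, PSMC3IP and PSME3IP1, carry a proteasome symbol because of a binding partner and are not subunits. Symbols of the catalytic subunits PSMB5 and PSMB6 and of the chaperones PSMG2 and PSMG4 were not used in the tables, and unnamed identifiers at their RefSeq positions are given below where a comparison needs them.

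The proteasome is the protease that degrades proteins marked with ubiquitin. Its 20S core is a barrel of alpha rings, which form the gate, and beta rings, which hold the catalytic sites. The 19S particle caps the barrel: its lid removes ubiquitin, and its ATPase ring unfolds the substrate and opens the gate. Interferon exchanges the catalytic subunits for inducible ones, which gives the immunoproteasome, and other caps (PA28 and PA200) can replace the 19S particle. Cardiomyocytes are long-lived cells that rely on this route to turn over sarcomere and channel proteins.

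The control group received phosphate-buffered saline and had 5 libraries (1 to 5). The second group received deoxycorticosterone acetate (DOCA), a mineralocorticoid given to animals to make them hypertensive, and had 2 libraries (6 and 7). The third received DOCA and JK07, which the series title calls an ERBB4 agonist, and had 3 libraries (8 to 10). All animals were labelled wild type, and the sources used here do not give heart chamber, dose, time, age, sex or number of animals per library. Atrial remodeling and atrial fibrillation are the subject of the series.

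Libraries held 28.1 to 106 M estimated counts (M, mega), and ribosomal RNA scaffolds took 77.6% to 90.8% of them. The DOCA libraries stood apart. Outside ribosomal and mitochondrial RNA they held 6.87 and 3.30 M counts, against 8.67 to 13.9 M in controls and 9.03 to 12.9 M with JK07. The share of 13807 genes expressed in controls with a value of 0 was 26.1% in library 6 and 29.6% in library 7, against 0.818% to 7.09% in the other 8. Few values above 0 lay under a coverage of 1 (2.51% to 8.81% of them per library, and 11 of 415 among the proteasome genes tested), so a value of 0 need not mean that a gene was silent, and a gene at 0 in both DOCA libraries has no readable fold change. Placing the zeros at a coverage of 1, as is done at some results below, is an assumption and no bound. Cardiomyocyte markers were abundant in every library (summed level of 8 markers 4110 to 4931 CPM in controls, a count scaled to library size, 5605 and 3482 with DOCA, 5030 to 8024 with JK07). Fibroblast markers were present as well (7 of 7 measured, summed level 568 to 2278 CPM in controls, 554 and 2168 with DOCA, 564 to 1438 with JK07). Over all libraries, summed levels were 99.7 to 240 CPM for endothelial markers and 23.4 to 118 CPM for macrophage and lymphocyte markers. Smooth muscle and pericyte markers were at 45.0 to 93.5 CPM. The part of these other cell types in the results below was not tested. In such bulk samples, fewer cells of a type and less RNA per cell cannot be told apart.

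Of the 46 genes, 44 could be tested, and PSMA8 (the testis form of an alpha subunit) and PSMB11 (the thymus form of a catalytic subunit) were listed at 0 in all 10 libraries. In all 5 controls 42 genes were above 0. Per unit of length, the level in control libraries was highest for PSME4, the PA200 activator, at a mean of 10.3 ± 3.70 TPM (the deposited length-corrected unit; SD, n = 5). PSMB4, a structural beta subunit, followed at 8.25 ± 1.38 TPM, which lies within the spread of PSME4. PSMA7 (7.29 ± 1.24 TPM) and the ATPase PSMC5 (6.60 ± 0.469 TPM) came next, and each overlapped its neighbour. Near the bottom stood the inducible catalytic subunits PSMB8 (1.16 ± 0.348 TPM) and PSMB9 (1.01 ± 0.378 TPM), the alpha subunit PSMA4 (0.789 ± 0.130 TPM) and the chaperone PSMD10 (0.442 ± 0.339 TPM). Nuclear RNA levels also differed within the alpha ring, with PSMA7 at 7.29 TPM and PSMA4 at 0.789 TPM. The activator, the inducible subunits and the chaperone are not fixed parts of every proteasome, so equal levels need not hold for them. When counts were divided by the genomic span in place of the transcript length, PSMB4 stood first and PSME4, which spans 106 kb, fell out of the first 8 genes.

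**Figure D1:**
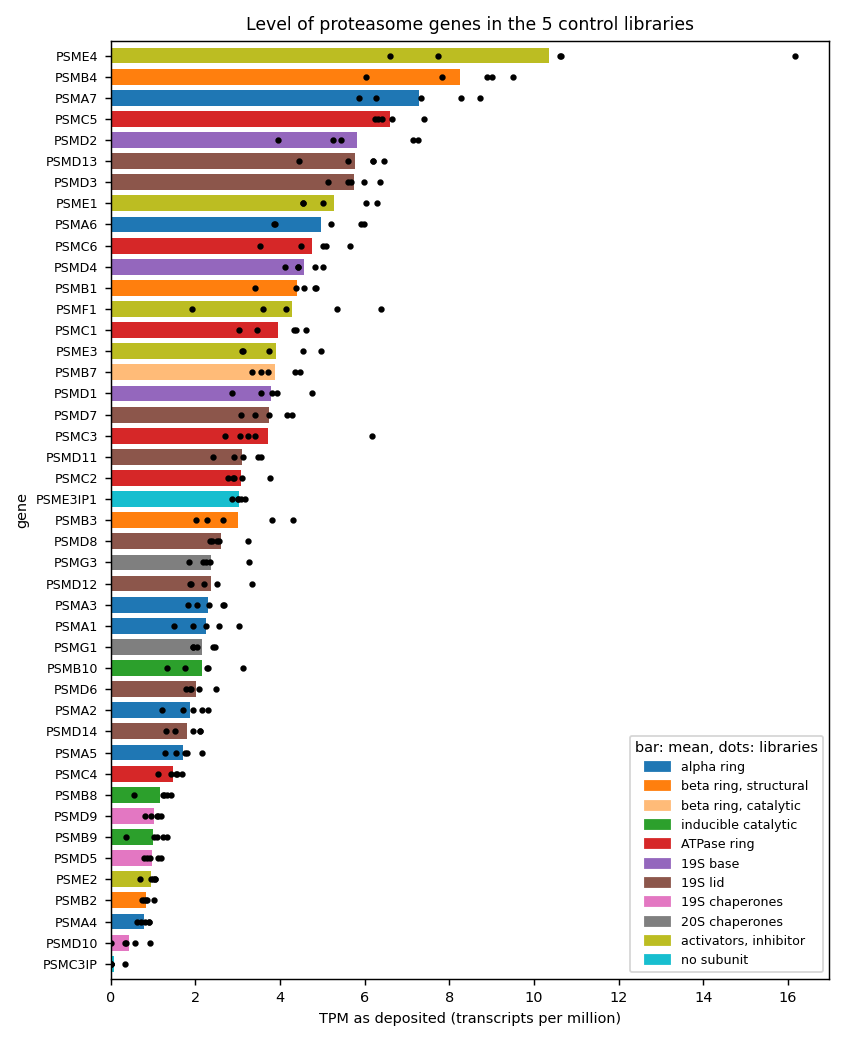
Level of the 44 proteasome genes above 0 in a control library, in TPM as deposited (x axis), with 1 bar per gene for the mean of 5 control libraries, dots for the libraries and colours for the role of the subunit. PSME4 has the highest mean and the widest spread, while the inducible catalytic subunits PSMB8 and PSMB9 stand near the bottom.

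Between DOCA and control, most proteasome genes had lower values, and few passed the test. Of 44 genes, 36 had a fold change below 0 (81.8%, against 66.3% of all genes tested), 6 passed as lower (PSMA4, PSMA6, PSMB7, PSMD9, PSMF1 and PSME3IP1) and 1 as higher (PSMD3). The test was edgeR's quasi-likelihood F test with Benjamini-Hochberg adjustment over 17251 genes and a threshold of 0.05. Lower calls were thus 13.6% of the proteasome genes, against 19.7% of all genes tested, and higher calls were 2.27% against 5.73%. The median log2 fold change was -0.56 for the proteasome genes and -0.63 for all genes, and with zeros placed at a coverage of 1 it was -0.39 and, over the same genes, -0.08. The order of the shares of lower calls turned with the setting: the share was below that of all genes in 17 of 21 settings and above it in 4, and no difference in share was tested. Those 4 were zeros at a coverage of 1 (27.3% against 17.2%), limma on log2(TPM + 0.1) (45.5% against 30.7%), limma on log2(TPM + 1) (45.5% against 28.0%) and the fit without library 6 (36.4% against 22.0%). Of all calls, 22.5% were higher, or 34.7% with upper quartile scaling, which raised the median of all genes by 0.24, 48.8% with zeros at a coverage of 1, and 3.24% and 5.64% on TPM. The count of lower calls moved with single libraries: it was 16 without library 6 (4083 of all genes), 8 without library 7 (3932), and 3 without control library 2 (2647) or 4 (2549). With quality weights per library in limma no proteasome gene passed (4 lower and 1 higher at an unadjusted p under 0.05), while DESeq2 called 11 lower and 2 higher.

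The order of the libraries was read gene by gene on CPM. In 16 of 44 proteasome genes (36.4%) both DOCA libraries lay below every control, against 27.6% of all genes tested. In 3 genes (6.82%, PSMD3, PSMD4 and PSMG3) both lay above every control, against 10.2%. The order can depend on the scale: on deposited TPM, PSMD4 lay below every control in library 6 and above every control in library 7. In libraries 6 and 7, 15.9% and 25.0% of the 44 were listed at 0, against 34.9% and 39.1% of all genes tested. The order was the same in the controls, with 2.27% of the 44 at 0 in each library, against 5.48% to 15.2% of all genes tested. A smaller share of zeros was thus not particular to the DOCA libraries. Among the 13807 genes expressed in controls, 26.1% and 29.6% were at 0 in libraries 6 and 7.

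The alpha ring forms the outer rings of the core and its gate. PSMA6 (ENSSSCG00000054516, chromosome 7, 64578243 to 64616491 on Sscrofa11.1) was at 3.92, 3.80, 2.82, 3.66 and 2.56 CPM in the controls, 1.64 and 0.502 CPM with DOCA, and 4.09, 3.04 and 2.17 CPM with JK07. Both DOCA libraries lay below every other library, and the JK07 libraries overlapped the controls. The log2 fold change with DOCA was -1.64 ± 0.48 (SE; edgeR, adjusted p = 0.0370). The call was lost without any one of control libraries 1, 2, 3 or 4, DOCA library 7 or JK07 library 9. It was also lost with only the 2 groups compared (edgeR, adjusted p = 0.0582) and with quality weights (limma, adjusted p = 0.354). PSMA4 (ENSSSCG00000036924, chromosome 7, 47434919 to 47448891) was at 2.81 to 3.75 CPM in the controls, at 0 in both DOCA libraries, and at 3.05, 2.47 and 2.27 CPM with JK07. It passed the test as lower with DOCA, but a coverage of 1 corresponds to 2.26 and 2.96 CPM for this gene in libraries 6 and 7. With the zeros placed at that coverage the call was lost (adjusted p = 0.0721), so the size of the PSMA4 difference cannot be read.

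The remaining alpha genes differed in how many DOCA libraries were low. PSMA1 was at 1.68 to 3.05 CPM in the controls, at 0 and 0.736 CPM with DOCA and at 1.25 to 1.74 CPM with JK07, with an adjusted p of 0.130 in edgeR for DOCA against control. It passed as lower in DESeq2 (adjusted p = 0.0123), in limma on TPM, with zeros at a coverage of 1 (edgeR, adjusted p = 0.00873) and without library 6 or library 7. PSMA2, PSMA3 and PSMA5 were listed at 0 in library 7 alone; in library 6 they stood at 3.46, 3.25 and 0.998 CPM, just under the lowest control (3.85, 3.41 and 1.03 CPM). PSMA7 had a fold change above 0, with 3.82 to 6.15 CPM in the controls, 5.35 and 6.16 CPM with DOCA and 3.90 to 4.97 CPM with JK07. Its log2 fold change of 0.19 ± 0.23 did not pass the test (edgeR, adjusted p = 0.563), and the sign turned on TPM values (-0.33 and -0.28) and with zeros at a coverage of 1 (-0.0630). Summed over the ring, the level was 21.7 to 27.1 CPM in the controls, 14.7 and 7.39 CPM with DOCA, and 17.2 to 24.4 CPM with JK07. Without PSMA7 the DOCA libraries held 9.34 and 1.24 CPM, against 15.6 to 22.2 CPM in the controls. Library 7 was thus lower than library 6 in the ring's sum. PSMA2, PSMA3, PSMA4 and PSMA5 entered the library 7 sum as zeros, so the size of that difference cannot be read. In 6 of 7 tested alpha genes both DOCA libraries lay below every control, against 27.6% of all genes tested. For PSMA4 this order rests on its zeros: a coverage of 1 corresponds to 2.96 CPM in library 7, above the lowest control at 2.81 CPM.

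In the beta ring, PSMB7 (ENSSSCG00000005590, chromosome 1, 265172237 to 265235387) carries the trypsin-like activity. It was at 2.26, 2.79, 2.37, 2.98 and 2.39 CPM in the controls, 1.25 and 1.37 CPM with DOCA, and 2.16, 1.98 and 2.17 CPM with JK07. The DOCA libraries agreed closely and lay below all others, and the JK07 libraries lay between the groups without overlap. The log2 fold change with DOCA was -0.96 ± 0.25 (edgeR, adjusted p = 0.0225). The call was lost with upper quartile scaling (adjusted p = 0.0726) and without control library 2 or 4 or DOCA library 6. PSMB7 shares 4667 bp with NEK6 on the opposite strand, and reads of overlapping genes may not be told apart, since the sources used here do not state whether the counting used strand.

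The structural beta subunits PSMB1 to PSMB4 gave no call with DOCA (0 of 4 in edgeR, against 19.7% of all genes lower and 5.73% higher). PSMB1 had an unadjusted p under 0.05 in edgeR. It also passed in DESeq2 and in limma on TPM, where PSMB4 passed at 1 of 2 pseudocounts. PSMB1 was at 2.22 to 3.01 CPM in the controls, 0.998 and 1.81 CPM with DOCA and 1.78 to 2.64 CPM with JK07, with a log2 fold change of -0.91 ± 0.32 (edgeR, adjusted p = 0.0681). On CPM, PSMB2, PSMB3 and PSMB4 each had a DOCA library inside or above the control range. PSMB4, the most abundant beta gene, was at 4.17 to 6.0 CPM in the controls and 6.71 and 3.15 CPM with DOCA. On deposited TPM both DOCA libraries of PSMB4 (5.38 and 4.50) lay below every control (6.03 to 9.49). The same held for PSMB2 (0.436 and 0.676 TPM, against 0.732 to 1.02), while PSMB3 still had library 7 inside the control range. The unnamed identifier at the PSMB5 position (chymotrypsin-like subunit, chromosome 7, 76014901 to 76021919) was at 1.00 to 1.34 CPM in the controls and 1.20 and 1.24 CPM with DOCA. The one at the PSMB6 position (caspase-like subunit, chromosome 12, 52095888 to 52098231) was at 2.44 to 3.82 CPM and at 1.64 and 2.21 CPM.

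**Figure D2:**
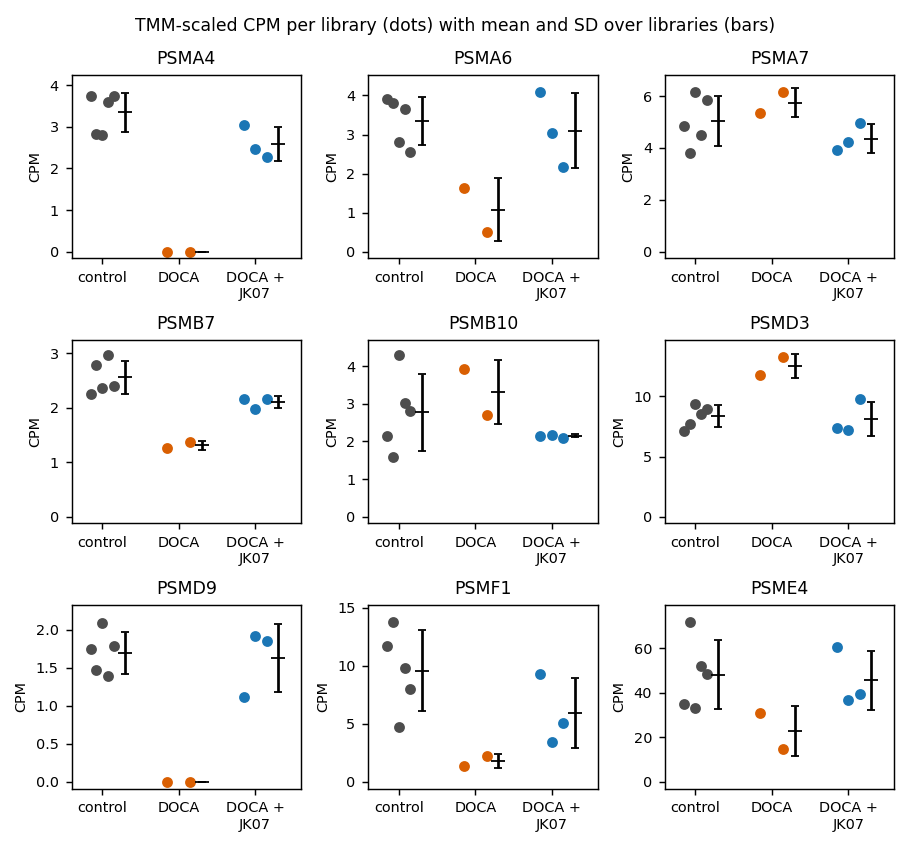
TMM-scaled CPM (y axis) of 9 proteasome genes in control, DOCA and DOCA plus JK07 libraries, with a dot per library and a bar for the mean and SD over libraries. In PSMA6, PSMB7 and PSMF1 both DOCA dots lie below every control, in PSMA4 and PSMD9 they lie at 0, and in PSMD3 they lie above every other library.

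The inducible catalytic subunits, which replace PSMB5, PSMB6 and PSMB7 in the immunoproteasome, did not pass the test in any comparison (0 of 3 in edgeR and in DESeq2). None had an unadjusted p under 0.05 in edgeR, and limma on TPM called PSMB9 lower with DOCA. Over all genes tested, edgeR called 19.7% lower and 5.73% higher with DOCA, and 14.7% higher and 2.25% lower in JK07 against DOCA. PSMB10 was at 2.15, 1.59, 4.30, 3.02 and 2.82 CPM in the controls, 3.92 and 2.71 CPM with DOCA, and 2.16, 2.18 and 2.10 CPM with JK07. The groups overlapped, and the log2 fold change with DOCA was 0.26 ± 0.37 (edgeR, adjusted p = 0.637), with the opposite sign on deposited TPM values and, at -0.04, without library 6. PSMB8 was at 1.45, 0.623, 1.60, 1.76 and 1.54 CPM in the controls, 0 and 1.84 CPM with DOCA, and 0.961, 1.15 and 0.884 CPM with JK07. Library 7 lay above every control. The 0 of library 6 cannot be placed, since a coverage of 1 corresponds to 0.874 CPM there, above the lowest control. PSMB9 stood near the coverage minimum, at 0.219 to 0.820 CPM in the controls, 0.333 and 0 CPM with DOCA, and 0.209, 0 and 0.350 CPM with JK07. PSMB8 and PSMB9 lie head to head on chromosome 7 with 121 bp between them, and PSMB9 shares 12073 bp with the peptide transporter gene TAP1 on the opposite strand.

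Set against the subunit it replaces, PSMB10 was at 0.295 to 0.939 times the TPM of PSMB7 in the controls, 1.61 and 1.02 times with DOCA, and 0.502 to 0.570 times with JK07. Both DOCA ratios lay above every control, and PSMB7, the denominator, is the gene called lower. The TPM ratio of PSMB8 to the PSMB5 identifier was 0.195 to 0.650 in the controls, 0 and 0.594 with DOCA, and 0.390 to 0.441 with JK07. For PSMB9 against the PSMB6 identifier it was 0.0931 to 0.322 in the controls, 0.215 and 0 with DOCA, and 0 to 0.133 with JK07. Only the first of the 3 ratios kept the DOCA libraries outside the control range on the same side. The ratios of 0 come from listed zeros of PSMB8 or PSMB9, so their size cannot be read. No test was made of these ratios.

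The 6 ATPases of the 19S ring gave no call with DOCA (0 of 6 in edgeR and in DESeq2). In edgeR 19.7% of all genes tested were called lower and 5.73% higher. PSMC6 alone had an unadjusted p under 0.05 in edgeR. In limma on TPM PSMC6 passed, and PSMC1 at 1 of 2 pseudocounts. Summed over the 6 ATPases, the level was 29.2 to 38.9 CPM in the controls, 30.2 and 18.3 CPM with DOCA, and 25.8 to 33.7 CPM with JK07. PSMC6 had the lowest p: it was at 4.37 to 6.17 CPM in the controls, 4.22 and 1.14 CPM with DOCA and 4.04 to 5.65 CPM with JK07, with a log2 fold change of -1.01 ± 0.43 (edgeR, adjusted p = 0.128). It passed without library 6. PSMC5, the most abundant ATPase gene, was at 5.79 to 6.69 CPM in the controls, 5.30 and 4.72 CPM with DOCA and 5.39 to 7.51 CPM with JK07. PSMC4 was at 2.48 to 3.55 CPM in the controls and 3.25 and 3.55 CPM with DOCA, so the groups overlapped. PSMC1, PSMC2 and PSMC3 were at 3.97, 4.22 and 9.27 CPM in library 6 and at 2.07, 2.81 and 3.98 CPM in library 7, against control ranges of 3.67 to 5.08, 4.77 to 6.16 and 6.07 to 12.4 CPM. On CPM only PSMC2 of these had both DOCA libraries below every control, while on deposited TPM PSMC1, PSMC2 and PSMC3 all did.

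The lid and the base beside the ATPases held the only gene called higher. PSMD3 (ENSSSCG00000017489, chromosome 12, 22344751 to 22360545), a scaffold subunit of the lid, was at 7.16, 7.68, 9.34, 8.54 and 8.96 CPM in the controls, 11.8 and 13.2 CPM with DOCA, and 7.38, 7.17 and 9.76 CPM with JK07. Both DOCA libraries lay above the other 8, and the JK07 libraries overlapped the controls. The log2 fold change with DOCA was 0.58 ± 0.18 (edgeR, adjusted p = 0.0427). The call was lost without any one of libraries 1 to 7 or 9, and in limma on deposited TPM the log2 fold change was 0.05. It was also lost without the filter (edgeR, adjusted p = 0.0520), with zeros at a coverage of 1 (edgeR, adjusted p = 0.251) and with quality weights (limma, adjusted p = 0.216). PSMD14, the deubiquitinase of the lid, was at 1.17 to 1.84 CPM in the controls, 0.589 and 0 CPM with DOCA and 0.723 to 1.42 CPM with JK07 (edgeR, adjusted p = 0.191). It passed as lower in DESeq2 (adjusted p = 0.0210), in limma on TPM, with zeros at a coverage of 1 (edgeR, adjusted p = 0.00686) and without library 6. PSMD12 and PSMD13 were at 7.68 and 5.68 CPM in library 6 and at 0 in library 7, which shows how far the 2 DOCA libraries differed. On CPM, PSMD6, PSMD7, PSMD8 and PSMD11 had a DOCA library within the control range or libraries on both sides of it.

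The base subunits PSMD1, PSMD2 and PSMD4 gave no call with DOCA (0 of 3 in edgeR, against 19.7% of all genes lower and 5.73% higher, and 0 in DESeq2). None had an unadjusted p under 0.05 in edgeR, and limma on TPM called PSMD1 lower. PSMD2, the most abundant of them and a docking site for ubiquitin shuttles, was at 8.54 to 14.1 CPM in the controls, 18.4 and 8.0 CPM with DOCA, and 10.2 to 15.8 CPM with JK07. PSMD1 was at 7.34 to 10.8 CPM in the controls and 9.70 and 2.71 CPM with DOCA (log2 fold change -0.52 ± 0.41; edgeR, adjusted p = 0.375), and the log2 fold change was -1.72 without library 6 (adjusted p = 0.00301) and 0.12 without library 7. PSMD4, a ubiquitin receptor, was at 3.67 to 4.28 CPM in the controls and 4.68 and 4.82 CPM with DOCA. On TPM it was at 4.13 to 5.02 in the controls and on both sides of them with DOCA, at 2.75 and 5.08.

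Among the chaperones that assemble the 19S particle, PSMD9 (ENSSSCG00000036483, chromosome 14, 30793524 to 30822127) was at 1.74, 1.48, 2.09, 1.39 and 1.78 CPM in the controls, at 0 in both DOCA libraries, and at 1.12, 1.92 and 1.85 CPM with JK07. It passed the test as lower with DOCA. A coverage of 1 corresponds to 0.867 and 1.13 CPM for PSMD9 in libraries 6 and 7, and with the zeros placed there, which is an assumption, the gene passed at a log2 fold change of -1.02 ± 0.30 (edgeR, adjusted p = 0.0257). PSMD10 was also at 0 in both DOCA libraries, but one control was at 0 and the others at 0.335 to 0.856 CPM (edgeR, adjusted p = 0.0721). PSMD5 was at 1.56 to 2.12 CPM in the controls and at 0 and 1.91 CPM with DOCA. Of the chaperones of the 20S core, PSMG3 was at 0.929 to 1.60 CPM in the controls, 2.12 and 1.87 CPM with DOCA and 1.39 to 1.87 CPM with JK07, with a log2 fold change of 0.70 ± 0.33 (edgeR, adjusted p = 0.155). It passed in DESeq2. PSMG1 was at 1.98 to 2.71 CPM in the controls, and the DOCA libraries lay on both sides at 3.33 and 0.770 CPM.

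PSMF1 (ENSSSCG00000038854, chromosome 17, 34098991 to 34169287) encodes PI31, a protein first described as an inhibitor of the core and also known as an adaptor in its transport. It was at 11.7, 13.8, 4.72, 9.79 and 7.97 CPM in the controls, 1.41 and 2.21 CPM with DOCA, and 9.30, 3.46 and 5.09 CPM with JK07. Both DOCA libraries lay below the other 8, and the JK07 libraries overlapped the lower end of the controls. The log2 fold change with DOCA was -2.41 ± 0.54 (edgeR, adjusted p = 0.0107). The count of PSMF1 per unit of coverage was 49.5 to 133 in the controls and 49.7 and 49.6 with DOCA, so counts and coverage did not move alike. PSMF1 was not alone in this. Over the libraries above 0 the same value was 23.7 to 69.5 for PSME3, 16.1 to 32.3 for PSME2 and 27.5 to 50.2 for PSMG1. For PSMC3 it was 79.4 to 127 and for PSMA2 63.1 to 97.2, so the CPM values of these genes carry the same limit. In TPM the gene was at 1.92 to 6.38 in the controls, 0.317 and 0.893 with DOCA, and 1.34 to 4.85 with JK07, again with both DOCA libraries below the other 8. Of the genes called lower that were above 0 in a DOCA library, PSMF1 had the fold change farthest from 0. The call was lost without library 6 (log2 fold change -2.12, adjusted p = 0.0699) and with quality weights (adjusted p = 0.333). PSMF1 shares 2886 bp with TMEM74B on the opposite strand.

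Of the activators, none passed with DOCA (0 of 4 in edgeR, against 19.7% of all genes lower and 5.73% higher). PSME4 had an unadjusted p under 0.05 in edgeR and passed in DESeq2, and PSME3 and PSME4 passed in limma on TPM. PSME2 passed in limma on log2(TPM + 0.1), at -2.12 with an adjusted p of 0.0382, and in edgeR without library 6. PSME4 was at 35.1, 72.0, 33.5, 51.9 and 48.5 CPM in the controls, 31.0 and 14.9 CPM with DOCA, and 60.7, 36.9 and 39.4 CPM with JK07. Library 6 lay just under the lowest control and library 7 well below, and the log2 fold change was -1.07 ± 0.41 (edgeR, adjusted p = 0.0897). PSME3, the nuclear PA28 gamma, was at 3.38 to 5.06 CPM in the controls, 4.02 and 1.37 CPM with DOCA and 2.82 to 3.72 CPM with JK07 (log2 fold change -0.58 ± 0.39; edgeR, adjusted p = 0.308). PSME1 and PSME2 form the interferon-induced PA28 and lie 2895 bp apart on chromosome 7. PSME1 was at 3.26 to 4.63 CPM in the controls, 3.12 and 4.32 CPM with DOCA and 2.17 to 4.34 CPM with JK07, and PSME2 was under 1 CPM throughout, with a 0 in library 7. PSME3IP1, which binds PSME3 and is no subunit, was at 2.46 to 2.94 CPM in the controls, 1.56 and 0.870 CPM with DOCA and 1.44 to 2.52 CPM with JK07 (log2 fold change -1.10 ± 0.34; edgeR, adjusted p = 0.0436). Its call was lost without any one of libraries 1 to 5, 7, 9 or 10. In edgeR it was also lost with DESeq2 size factors (adjusted p = 0.0515), upper quartile scaling (0.0854) and no filter (0.0553), and in limma with quality weights (0.385). PSMC3IP, a recombination factor, was at 0 in 4 of 5 controls.

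**Figure D3:**
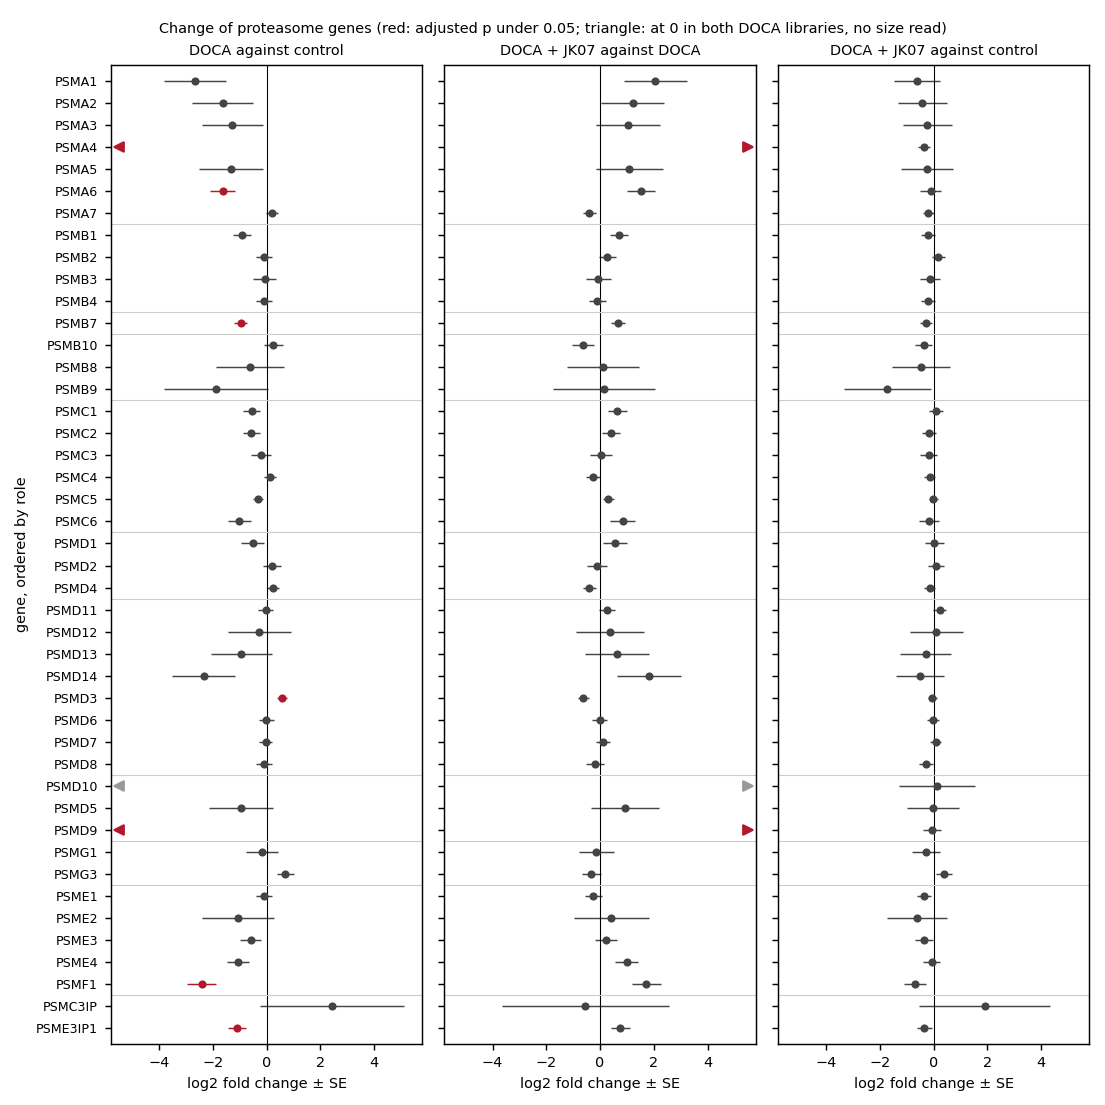
Log2 fold change (x axis) of the 44 tested proteasome genes, ordered by role, with bars for the approximate SE and red for an adjusted p under 0.05 in edgeR, in a panel each for DOCA against control, both agents against DOCA, and both agents against control. In the first panel 36 genes lie below 0 and 7 are red, in the second 2 are red, and in the third none is red; triangles mark genes at 0 in both DOCA libraries, whose size cannot be read.

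Longer proteasome genes had lower values with DOCA. The 44 tested genes spanned 2.38 to 109 kb, with a median of 14.6 kb. Over the 41 genes above 0 in a DOCA library, Spearman's rho between span and the log2 fold change was -0.54. Over 12460 genes above 0 in a DOCA library it was -0.19, the same sign and nearer to 0. With genes at 0 in both DOCA libraries kept, rho was -0.47 over the 44 genes and -0.03 over all 17251 genes tested. The fold changes of those added genes have no readable size. Of the 7 genes under 5 kb, 5 lay below 0, and their fold changes ran from -1.05 (PSME2) to 0.70 (PSMG3) with a median of -0.10. Of the 25 genes of 5 to 40 kb, 19 lay below 0, with a median of -0.21. All 9 genes over 40 kb lay below 0, from -2.68 to -0.09 with a median of -1.10. They include PSMA1 (109 kb), PSME4 (106 kb), PSMF1 (70.3 kb) and PSMB7 (63.2 kb). Of all genes tested, of any span, 66.3% lay below 0, and the share among all genes of each span group is not given here. PSMB2, at 46.9 kb, was nearly level on CPM, with 2.76 to 3.55 CPM in the controls and 3.07 and 2.64 CPM with DOCA. On TPM both its DOCA libraries lay below every control. The points share the same 7 libraries, and no p is given.

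**Figure D4:**
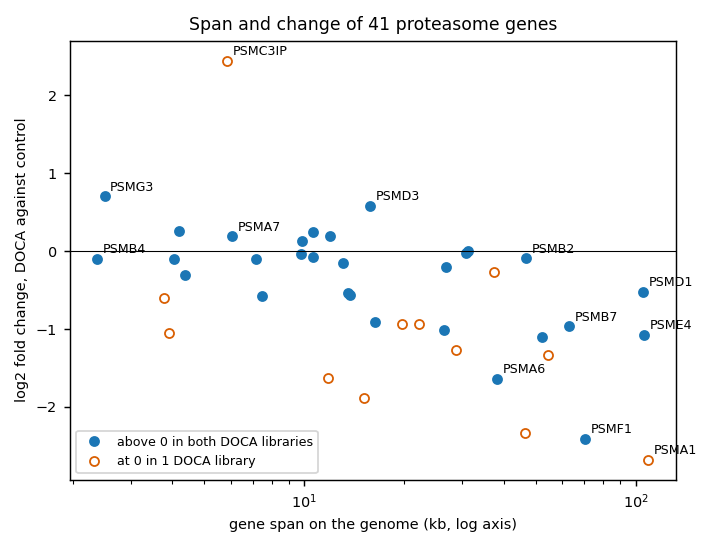
Span of the gene on the genome in kb (x axis, log scale) against the log2 fold change of DOCA against control (y axis) for the 41 tested proteasome genes above 0 in a DOCA library; open circles mark genes at 0 in one DOCA library. Genes of a few kb scatter around 0, while the genes over 40 kb lie below 0, with PSMB2 the nearest to it.

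Between DOCA plus JK07 and DOCA, 30 of 44 proteasome genes had a fold change above 0 (68.2%, against 66.6% of all genes), and 2 passed as higher (4.55%, against 14.7% of all genes tested) and 0 as lower (against 2.25% of all genes). At an unadjusted p under 0.05 in edgeR there were 7 higher and 1 lower, and DESeq2 called 5 higher and 1 lower. Of all calls, 86.8% were higher, or 73.6% with upper quartile scaling. The median log2 fold change was 0.33, against 0.55 for all genes. The 2 genes that passed were PSMA4 and PSMD9, which were at 0 in both DOCA libraries. With the zeros placed at a coverage of 1, neither call held: PSMD9 had a log2 fold change of 0.96 ± 0.32 (edgeR, adjusted p = 0.0559), and PSMA4 one of 0.27 ± 0.26 (adjusted p = 0.486). This comparison shares the 2 DOCA libraries with the one above, so opposite signs in the 2 comparisons are not separate findings.

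The genes with lower values under DOCA mostly missed the threshold in this comparison in the main edgeR fit, and several passed in other settings. PSMF1 had a log2 fold change of 1.72 ± 0.55 (edgeR, adjusted p = 0.0596) and PSMA6 one of 1.53 ± 0.51 (adjusted p = 0.0681). PSMB7 was at 0.68 ± 0.27 (adjusted p = 0.121), PSMB1 at 0.71 ± 0.34 (adjusted p = 0.197) and PSME4 at 0.99 ± 0.43 (adjusted p = 0.157). PSMD3, the gene called higher with DOCA, was at -0.63 ± 0.20 (adjusted p = 0.0601), and passed with upper quartile or DESeq2 size factors but turned sign on TPM values. In the ATPase ring PSMC1 had the lowest p, at 0.64 ± 0.34 (adjusted p = 0.243). PSMF1 passed in DESeq2 (adjusted p = 0.0233), in limma on TPM, with zeros at a coverage of 1, and without control library 3 or JK07 library 9. PSMA6 passed in DESeq2 (adjusted p = 0.0259), in limma on TPM and with zeros at a coverage of 1. Limma on TPM also called PSMB7, PSME4 and PSMC1 higher, and PSMB1 on log2(TPM + 1). PSMB7 and PSMB1 passed with zeros at a coverage of 1 as well. With quality weights no proteasome gene passed. The count of higher genes was 14 without library 6 (31.8%, against 3849 or 20.8% of all genes) and 6 without library 7 (13.6%, against 3588 or 19.3%).

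Between DOCA plus JK07 and control, no proteasome gene passed (0 of 44 in edgeR and in DESeq2, with 0 at an unadjusted p under 0.05 in both, against 803 genes or 4.65% of all genes at that p). The edgeR test called 0.0% of all genes in this comparison. No setting called a proteasome gene here. Of 44 proteasome genes, 34 had a fold change below 0 (77.3%, against 50.1% of all genes), and the median log2 fold change was -0.18, against 0.00 for all genes. The median of the proteasome genes turned sign on log2(TPM + 0.1) and log2(TPM + 1), at 0.02 in both, against 0.19 and 0.11 for all genes. In 1 gene (2.27%), PSMB7, all 3 JK07 libraries lay below every control, against 2.45% of all genes, and in none did they lie above, against 3.37%. For PSMB7 the log2 fold change was -0.28 ± 0.21, for PSMF1 -0.69 ± 0.41, for PSME1 -0.35 ± 0.26 and for PSMB10 -0.37 ± 0.33 (edgeR, adjusted p = 1 for each). These errors leave room for a difference in either direction, and a missed threshold does not show that the groups were alike.

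Genes that work with the proteasome were followed in 5 lists, and the share of all genes tested that passed is given beside each: 19.7% lower and 5.73% higher with DOCA, and 14.7% higher and 2.25% lower in JK07 against DOCA. Among partners outside the name rule, 1 of 11 (9.09%) passed with DOCA, and it was lower (all genes 19.7%). ECPAS, an adaptor that tethers the 26S proteasome to other compartments, was at 32.4, 40.99, 41.04, 40.2 and 36.9 CPM in the controls, 19.7 and 16.4 CPM with DOCA, and 35.5, 33.8 and 41.7 CPM with JK07. The DOCA libraries lay below all others. Its log2 fold change was -1.08 ± 0.17 with DOCA (edgeR, adjusted p = 0.00157) and 1.03 ± 0.19 for JK07 against DOCA (adjusted p = 0.00350). The second call was lost with only the 2 groups compared (adjusted p = 0.0578) and with quality weights (0.128). ADRM1, the ubiquitin receptor RPN13 of the 19S base, was at 2.04 to 3.81 CPM in the controls, 4.94 and 5.62 CPM with DOCA, and 2.19 to 2.94 CPM with JK07. It passed as lower in JK07 against DOCA (log2 fold change -1.03 ± 0.30; edgeR, adjusted p = 0.0426) and not in DOCA against control (0.70 ± 0.27, adjusted p = 0.0926). The ADRM1 call was lost on TPM values and without any one of libraries 3, 5, 7, 8 or 9.

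Of 10 genes that control proteasome transcription, 5 passed as lower with DOCA (against 19.7% of all genes) and 0 as higher (against 5.73%), and 3 passed as higher in JK07 against DOCA (30.0%, against 14.7%). These shares were not tested against those of all genes. NFE2L2, which encodes the stress factor NRF2, was at 19.4, 24.3, 25.2, 20.3 and 20.1 CPM in the controls, 7.35 and 11.14 CPM with DOCA, and 22.5, 19.4 and 24.7 CPM with JK07. The DOCA libraries lay below all others, with a log2 fold change of -1.24 ± 0.22 with DOCA (edgeR, adjusted p = 0.00267) and 1.26 ± 0.23 for JK07 against DOCA (adjusted p = 0.00394). With quality weights both calls were lost (adjusted p = 0.0621 and 0.128), and with only the 2 groups compared the second was (0.0677). NFYA, a subunit of the CCAAT-binding factor, was at 5.46 to 7.90 CPM in the controls, 3.25 and 2.58 CPM with DOCA and 4.74 to 7.91 CPM with JK07 (log2 fold change -1.28 ± 0.27 with DOCA; edgeR, adjusted p = 0.00717; 1.16 ± 0.28 for JK07 against DOCA, adjusted p = 0.0200, lost without library 7, 8 or 9). Its partner NFYB was at 1.35 to 2.26 CPM in the controls, at 0 in both DOCA libraries and at 1.43 to 2.32 CPM with JK07, and was called in both comparisons. With both DOCA libraries at 0, the size of the NFYB difference cannot be read.

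NGLY1, the glycanase that processes the factor NRF1, was lower with DOCA at a log2 fold change of -1.59 ± 0.38 (edgeR, adjusted p = 0.0139). The call was lost without library 6. NFE2L1, which encodes NRF1, the main inducer of proteasome genes, was at 27.3 to 35.4 CPM in the controls, 38.2 and 33.5 CPM with DOCA, and 20.4 to 35.1 CPM with JK07, without a call (edgeR, adjusted p = 0.565 for DOCA against control).

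Of 8 genes of ubiquitin supply and activation, 3 passed as lower with DOCA (37.5%, against 19.7% of all genes) and 1 as higher (12.5%, against 5.73%). UBB, a polyubiquitin gene, was at 23.6 to 26.5 CPM in the controls, 13.3 and 14.02 CPM with DOCA and 16.8 to 22.8 CPM with JK07 (log2 fold change -0.88 ± 0.17; edgeR, adjusted p = 0.00391). RPS27A, which encodes ubiquitin fused to a ribosomal protein and may share reads with near-identical copies, was at 7.37 to 13.3 CPM, 3.12 and 4.55 CPM, and 6.34 to 7.66 CPM in the same order (-1.47 ± 0.27, adjusted p = 0.00323). UBA6, another activating enzyme, was at 3.37 to 8.59 CPM in the controls, at 0 in both DOCA libraries and at 2.94 to 4.2 CPM with JK07. For UBA6 too the size of the difference cannot be read. UBA1, the main activating enzyme, moved the other way, from 12.1 to 18.7 CPM in the controls to 27.8 and 23.6 CPM with DOCA, and stood at 13.1 to 18.6 CPM with JK07 (0.76 ± 0.20 with DOCA, adjusted p = 0.0240). The UBA1 call was lost on TPM values and without library 3 or 6.

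Of 11 genes that deliver substrates, 2 passed as lower with DOCA (18.2%, against 19.7% of all genes) and 2 as higher (18.2%, against 5.73%). NPLOC4, the cofactor of the segregase VCP, was at 8.78 to 11.4 CPM in the controls, 30.8 and 14.99 CPM with DOCA and 11.4 to 12.8 CPM with JK07. Its log2 fold change was 1.17 ± 0.24 with DOCA (edgeR, adjusted p = 0.00632) and -0.93 ± 0.27 for JK07 against DOCA (adjusted p = 0.0438). FAF2, an adaptor of VCP at the endoplasmic reticulum, was at 7.82 to 10.6 CPM, 4.56 and 2.48 CPM, and 8.34 to 11.11 CPM in the 3 groups (-1.39 ± 0.28 with DOCA, adjusted p = 0.00541; 1.53 ± 0.29 for JK07 against DOCA, adjusted p = 0.00516). UBQLN2, a shuttle factor, was at 2.82 to 3.60 CPM, 0.640 and 1.91 CPM, and 2.04 to 3.5 CPM (-1.32 ± 0.43 with DOCA, adjusted p = 0.0498). The FAF2 calls held without each single library, but both were lost with quality weights (adjusted p = 0.106 and 0.151) and the JK07 call with only the 2 groups compared (0.0658). The NPLOC4 call with DOCA was lost without library 6 and on TPM values, and its JK07 call on TPM values and without library 3, 4, 5, 6, 8, 9 or 10. Among the fits that left out 1 library, UBQLN2 kept its call only without library 7.

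Of 8 genes of peptide antigen processing, which uses the peptides the immunoproteasome makes, 2 passed as lower with DOCA (25.0%, against 19.7% of all genes) and 0 as higher (against 5.73%). B2M, the light chain of class I molecules, was at 15.2 to 25.0 CPM in the controls, 9.09 and 7.83 CPM with DOCA and 12.1 to 15.1 CPM with JK07 (log2 fold change -1.25 ± 0.22 with DOCA; edgeR, adjusted p = 0.00282). ERAP1, which trims peptides, was at 5.01 to 8.92 CPM, 3.69 and 4.15 CPM, and 6.0 to 7.96 CPM (-0.90 ± 0.26, adjusted p = 0.0333, lost without library 2, 3, 4, 6, 7, 8 or 10). In JK07 against control no gene of the 5 lists passed in edgeR. B2M (-0.60 ± 0.18) was among 6 with an unadjusted p under 0.05 and passed in DESeq2. These 6 were 2 of 10 genes of proteasome control, 2 of 8 of ubiquitin supply and 2 of 8 of antigen processing. The other lists had 0 of 11 each, and 4.65% of all genes tested lay under that p. Beside the losses given above, quality weights also ended the DOCA calls of NFYA, NGLY1, UBB, RPS27A, UBA1, NPLOC4, B2M, ERAP1 and UBQLN2 and the JK07 calls of ADRM1, NFYA and NPLOC4. With only the 2 groups compared, the DOCA calls of ERAP1 and UBQLN2 and those same 3 JK07 calls were lost. Zeros at a coverage of 1 ended the DOCA call of UBA1 and the JK07 calls of ADRM1 and NPLOC4, and no filter ended the JK07 calls of ADRM1 and NPLOC4 and the DOCA call of UBQLN2. DESeq2 or upper quartile size factors ended the DOCA calls of ERAP1 and UBQLN2, and leaving out ribosomal and mitochondrial RNA that of UBQLN2. NFYB and UBA6, at 0 in both DOCA libraries, are not part of this list of losses.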

How the data were processed

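Nuclear RNA of sorted cardiomyocytes was extracted with TRIzol and made into libraries with the TruSeq RNA kit, per the labels' protocols. SAMtools, StringTie and edgeR on build Sscrofa11.1 are named in the submitters' processing notes. The aligner, versions, strand setting and annotation release are not given in the sources used here. The authors deposited, per library, the coverage signal, FPKM and TPM of 35670 identifiers per the file headers, and 1 table of whole-number estimated counts with no gene column. Its lines were matched to the sorted identifiers: the zeros fell on the same identifiers for 99.998% of values, and for 62.6% when shifted by 1 line. No proteasome gene differed in its zeros, and over 44 of them the correlation of counts and coverage across libraries was at least 0.818 (median 0.996). FPKM entered no test.

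Counts were tested with edgeR 4.0.16 (R 4.3.3; quasi-likelihood F test) after filterByExpr and TMM scaling, in 1 model of all 10 libraries with a term for group. Benjamini-Hochberg adjustment ran over 17251 genes in each of 3 comparisons, and the threshold was 0.05. The script was tested on simulated data with large changes, less spread than these data and no added zeros in the DOCA libraries. That check does not show how well the fit does on the data used here. CPM values used the TMM-scaled total count. The TMM factor was 0.511 in library 6 and 0.871 to 1.35 in the others, so CPM and TPM can order library 6 differently. Errors are SD over libraries for CPM and TPM, and approximate SE (log2 fold change divided by the root of F) for fold changes. The biological coefficient of variation was 0.873. With 2 DOCA libraries the spread rests mainly on the other groups. Nothing in the labels ties each library to an animal of its own, so a p-value reflects only how much these samples vary, possibly for technical reasons. Levels across genes used TPM. The files name 17640 identifiers, and 119 more were named from the reference gene table. Of the 46 proteasome genes, 22 overlap another identifier, 20 of them on the opposite strand, so their counts are uncertain.

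Named with statistics were proteasome genes past the threshold in any comparison, the inducible catalytic genes and their counterparts, activators and inhibitor, the gene with the lowest p and the highest TPM in each class, and pathway genes past the threshold (at most 3 per list and comparison by p, with others noted). Values of 2 pathway genes are not reported here. Members and lists were chosen with earlier results of these data known. Alternatives were DESeq2 1.42.0, other size factors, limma 3.58.1 on log2(TPM + 1) and log2(TPM + 0.1), voom with quality weights, no filter, only the 2 groups compared, ribosomal and mitochondrial RNA left out, and leaving out each library. Placing zeros at a coverage of 1, an assumption, was added after seeing the data.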

Additional observations from a re-analysis of the deposited data

Results flagged for a closer look

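Of the 44 proteasome genes tested, 6 had 1 control library farther from the other 4 than Dixon's limit of 0.710 of the group's range allows; chance flags about 1 in 20 groups. PSMC2 and PSMC3 were high in control library 1, at 6.16 and 12.38 CPM, where the other controls were at 4.77 to 5.13 and 6.07 to 6.71 CPM. PSMB8 was low in control library 2, at 0.6229 CPM, against 1.45 to 1.76 CPM in the others. PSMD13 was low in control library 4, at 4.38 CPM, against 5.66 to 5.8 CPM. In control library 3, PSME3IP1 was high at 2.94 CPM, against 2.46 to 2.57 CPM, and PSMC3IP was at 0.31 CPM where the other 4 controls were at 0. Of these genes PSME3IP1 alone was called in a comparison of the report, and that call was also lost without control library 3 (adjusted p = 0.0835).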

How the results depend on the processing

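No paired analysis was possible because the labels number the libraries from 1 to 10 and no number is shared between groups. For DOCA against control, proteasome genes called lower (6) were 11 in DESeq2, 20 in limma on TPM at either pseudocount, 0 with quality weights, 12 with zeros at a coverage of 1, and 3 to 16 when a library was left out; those called higher (1) were 2 in DESeq2, 0 in limma on TPM, with quality weights, without the filter and with zeros at a coverage of 1, and 0 to 1 when a library was left out. All genes called lower (3403) were 5293 on log2(TPM + 0.1) and 94 with quality weights. All genes called higher (988) were 1657 in DESeq2, 1523 with upper quartile scaling, 177 and 289 on log2(TPM + 0.1) and log2(TPM + 1), 67 with quality weights, 3042 with zeros at a coverage of 1, and 498 to 1354 when a library was left out. Higher calls were thus 22.5% of calls, but 3.24% and 5.64% on TPM and 48.8% with zeros at a coverage of 1.

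For JK07 against DOCA, proteasome genes called lower (0) were 1 in DESeq2, with DESeq2 or upper quartile size factors and with ribosomal and mitochondrial RNA left out, and 0 to 1 when a library was left out; those called higher (2) were 5 in DESeq2, 17 and 21 on TPM, 0 with quality weights, 5 with zeros at a coverage of 1, and 2 to 14 when a library was left out. All genes called lower (388) were 1137 in DESeq2, 752 with upper quartile scaling, 38 and 79 on TPM, 4 with quality weights, 112 with only the 2 groups, 1270 with zeros at a coverage of 1, and 195 to 867 when a library was left out. All called higher (2542) were 3908 in DESeq2, 5463 and 5403 on TPM, 1 with quality weights, and 2082 to 3849 when a library was left out. For JK07 against control, all genes called lower (0) were 64 in DESeq2 and 3 on log2(TPM + 0.1), and higher (0) were 51 in DESeq2, 9 on log2(TPM + 0.1) and 8 with quality weights. The causes were not tested. Depth limits values near 0, and the DOCA libraries held the fewest counts outside ribosomal and mitochondrial RNA (6.87 and 3.30 M); the part of depth in their zeros was not tested.

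Signs turned for PSMD3 in JK07 against DOCA (0.107 and 0.0922 on TPM), and in DOCA against control for PSMB10 (-0.23 and -0.17 on TPM, -0.0368 without library 6 and 0.49 without library 7), PSMA7 (-0.33 and -0.28 on TPM, -0.0630 with zeros at a coverage of 1) and PSMD1 (-1.72 without library 6, 0.12 without library 7). Scaling by DESeq2 size factors moved the median of all genes by 0.07 (DOCA against control) and -0.11 (JK07 against DOCA), and upper quartile scaling by 0.24 and -0.24. With zeros at a coverage of 1, the DOCA median was -0.39 for proteasome genes and -0.08 for the same genes as in the main test. On CPM the ratio of PSMB10 to PSMB7 was 0.570 to 1.81 in the controls and 3.12 and 1.98 with DOCA, so the DOCA libraries lay above every control on this scale too.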
